A study of Homo sapiens with 6 samples.

Results

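The 10 alpha and beta tubulin genes TUBA1A, TUBA1B, TUBA1C, TUBA4A, TUBB, TUBB2A, TUBB2B, TUBB3, TUBB4B and TUBB6 were followed in TC28a2, a human chondrocyte line that was immortalised to grow in culture. They were chosen by gene symbol as family members, matched to Entrez gene IDs, and are 10 of the 28395 IDs in the count table. All 10 passed the filter on low counts. TC28a2 cells were transfected with a ZEB1 overexpression vector or with a control vector, and RNA was taken 48 hours after transfection from 3 libraries per vector. The labels give neither the promoter nor the backbone of the vectors, and do not say whether replicates came from separate cultures. P-values therefore measure only the spread between these libraries, which may be technical. RNA was read by DRUG-seq, a pooled form of RNA-seq that covers mainly the 3' ends of transcripts.

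Alpha and beta tubulin form the heterodimer that polymerises head to tail into microtubules, the tracks for organelle transport and the fibres of the mitotic spindle. Mammals encode each subunit in several genes, called isotypes, whose proteins differ most in their C-terminal tails, where many modifications and motor contacts lie. Cells hold the pool of free dimers steady by autoregulation, in which the start of a nascent tubulin chain is recognised on the ribosome and its mRNA is degraded when free tubulin is abundant. In chondrocytes microtubules form the primary cilium and carry matrix proteins towards secretion. ZEB1 is a zinc finger transcription factor known as a repressor in epithelial to mesenchymal transition, and the study asked about it as a regulator of senescent cells in osteoarthritic joints.

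Totals were 1277632 to 3316228 counts with the ZEB1 vector, lowest in replicate 1, and 5359200 to 5878640 counts with the control vector. ZEB1 itself had 6894 to 14047 CPM (counts divided by the library's TMM-scaled total and multiplied by 1e6) with the ZEB1 vector and 20.8 to 32.6 CPM with the control vector, an edgeR log2 fold change of 8.79 (adjusted p = 2.37e-13). Counts from the vector and from the cell's own ZEB1 gene are not separated. ZEB1 replicate 3 was the deepest ZEB1 library and had the lowest ZEB1 level of the 3, so that within this group the effects of both are inseparable. Of the chondrocyte markers, SOX9 was counted in every library, at 68.3 ± 8.88 CPM with the ZEB1 vector and 67.3 ± 14.5 CPM with the control vector (SD, n = 3 each). COL2A1 and ACAN, which encode type II collagen and aggrecan, had 0 counts in each ZEB1 library and at most 8 and 7 counts in a control library, and COL9A1 had no count in any library. Those control counts are 1.31 and 1.12 CPM, while 3 counts make 2.67 and 1.93 CPM in ZEB1 replicates 1 and 2. Zeros in these shallow libraries therefore do not show a loss. SOX5 and COMP went the other way, with at most 5 and 3 counts in a ZEB1 library and 0 and 1 in a control library. Of the 11 listed chondrocyte markers 1 passed the filter on low counts. The summed level of the 11, mostly SOX9, was 61.1 to 82.6 CPM with the ZEB1 vector and 56.1 to 86.8 CPM with the control vector.

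The start of each coding sequence is shown because it encodes the part of the nascent chain that autoregulation reads. The first 30 coding bases of the GENCODE v29 principal transcript on GRCh38 follow, with codons 2 to 4 in capitals.
TUBA1A: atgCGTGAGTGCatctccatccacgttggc
TUBA1B: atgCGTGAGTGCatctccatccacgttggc
TUBA1C: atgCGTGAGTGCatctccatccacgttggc
TUBA4A: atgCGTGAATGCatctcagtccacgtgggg
TUBB: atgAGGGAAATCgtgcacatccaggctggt
TUBB2A: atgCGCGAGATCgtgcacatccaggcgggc
TUBB2B: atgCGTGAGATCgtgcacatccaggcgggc
TUBB3: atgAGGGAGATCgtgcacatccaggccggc
TUBB4B: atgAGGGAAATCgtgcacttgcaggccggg
TUBB6: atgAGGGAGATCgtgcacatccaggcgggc
The fourth codon is TGC in the 4 alpha genes and ATC in the 6 beta genes. TUBA1A, TUBA1B and TUBA1C are identical over these 30 bases.

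The members are close copies, which bears on every count given here. Coding sequences of the alpha genes were 84.6% to 97.3% identical to each other, those of the beta genes 81.3% to 98.2%, and alpha to beta 57.8% to 60.3%. The closest pairs were TUBB2A with TUBB2B (98.2%) and TUBA1A with TUBA1B (97.3%). Within the last 500 bases of the transcript, where most DRUG-seq reads are expected, none of the windows of 50 bases of TUBA1C, TUBA4A, TUBB, TUBB2B or TUBB6 occurred in the annotated transcripts of another locus. The share that did was 21.5% for TUBB3, 22.8% for TUBB4B, 29.05% for TUBA1A, 49.9% for TUBA1B and 56.1% for TUBB2A. How reads that match more than 1 gene were counted is not given in the sources used here, so the split between TUBA1A and TUBA1B and between TUBB2A and TUBB2B is uncertain. The RefSeq table places another gene over the spans of TUBA4A (STK16 and TUBA4B), TUBB4B (CIMIP2A) and TUBB6 (AFG3L2), and the strand setting of the counting is not given.

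No tubulin mRNA passed the test between the vectors. The 10 log2 fold changes, ZEB1 vector over control vector, ran from -0.23 for TUBA4A to 0.14 for TUBA1B, and their median was -0.07 beside -0.01 for all 11329 genes tested. That median was -0.16 without ZEB1 replicate 3, -0.01 without replicate 1 and 0.02 without replicate 2. In bulk RNA, fewer cells of a type and less RNA per cell cannot be told apart. Of the 10, 4 were positive and 6 negative, beside 5494 positive and 5835 negative among all genes tested. In edgeR's quasi-likelihood test 0 of the 10 passed an adjusted p of 0.05, where 0.00883% of all genes tested did. That share is 1 gene, ZEB1 itself, so that no other gene passed either. An unadjusted p under 0.05 was found for 0 of the 10, where 9.40% of all genes had one. DESeq2, which gave an adjusted p for 9 of the 10 (all but TUBA4A), called 0 of those, beside 7.49% of the genes it adjusted. Limma-voom called 0 of the 10, beside 0.512% of all genes. In none of the 10 did the 3 ZEB1 libraries lie entirely above or below the 3 controls, which held for 15.1% of all genes (6.96% higher and 8.16% lower).

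These small differences are read with their intervals, since a p that misses the threshold does not show equal levels. The 95% interval of the fold change lay between 0.678 and 1.36 for 9 of the 10 genes, and thus inside a change of 1.5-fold in either direction. This limit rests on all 6 libraries, since with each library dropped in turn it held for 6 to 9 of the 10. It held for 6 without ZEB1 replicate 3, where the lower bounds were 0.632 for TUBB2A, 0.586 for TUBB2B and 0.594 for TUBB3. TUBA4A, with far fewer counts, had an interval of 0.467 to 1.57. The median size of the difference regardless of sign was 0.11 on the log2 scale for the 10 tubulins, 0.20 for the 5631 genes whose counts averaged 100 or more and 0.27 for all genes tested. Their median standard error was 0.16, beside 0.22 and 0.33 in the same 2 sets of genes.

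**Figure D1:**
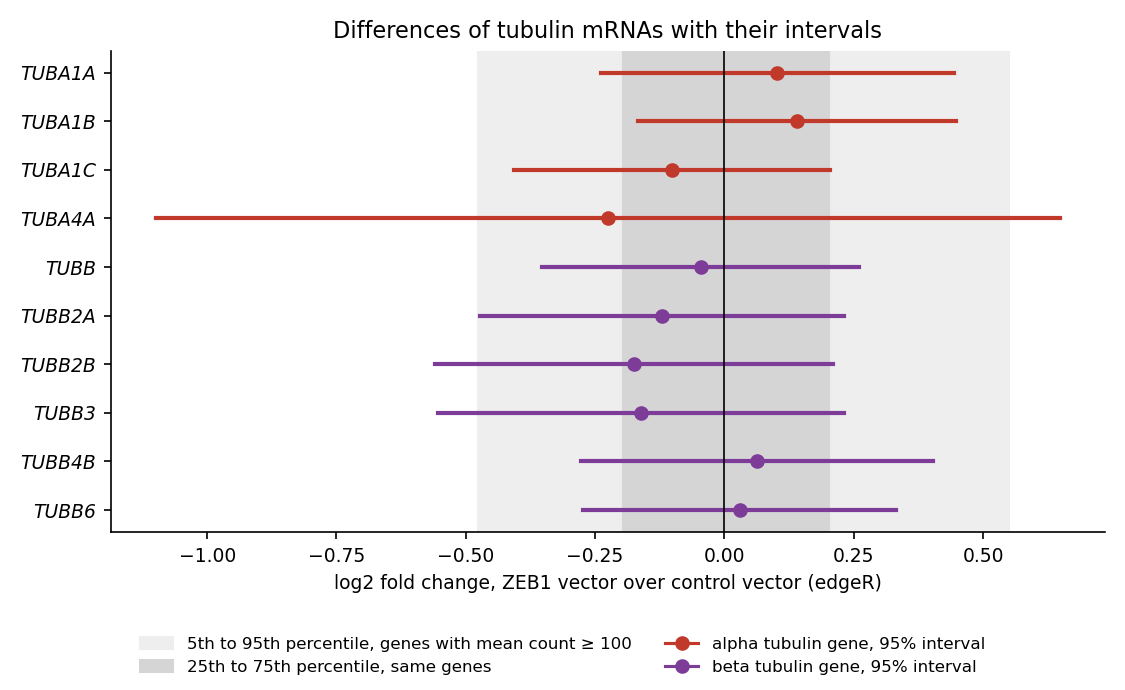
Log2 fold changes of the 10 tubulin mRNAs (x axis, ZEB1 vector over control vector, edgeR) with 95% intervals, alpha genes in red and beta genes in purple. Grey bands give the 5th to 95th and 25th to 75th percentiles of the log2 fold changes of the 5631 genes whose counts averaged 100 or more. Every interval crosses 0, and that of TUBA4A is the widest.

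Among the alpha genes, TUBA1B (Entrez 10376, chromosome 12, 49127782 to 49131395, GRCh38.p14), a ubiquitous isotype found in most dividing cells, had 2935, 2705 and 2556 CPM in ZEB1 replicates 1, 2 and 3, against 2400, 2684 and 2352 CPM in control replicates 1, 2 and 3. ZEB1 replicates 1 and 2 lay above all controls, replicate 3 lay within their range, and the groups overlapped. Its log2 fold change was 0.14 (SE 0.15, interval -0.17 to 0.45), with an edgeR adjusted p of 0.836. TUBA1C (Entrez 84790, chromosome 12, 49227926 to 49274600), a gene of the same cluster and also widely expressed, had 1369, 1245 and 1539 CPM with the ZEB1 vector, against 1519, 1478 and 1460 CPM with the control vector. Here ZEB1 replicates 1 and 2 lay below all controls and replicate 3 above them. The log2 fold change was -0.10 (SE 0.15, interval -0.41 to 0.20, edgeR adjusted p = 0.883).

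TUBA1A (Entrez 7846, chromosome 12, 49184795 to 49189080), the main alpha isotype of migrating and differentiating neurons, had 166, 197 and 157 CPM in the ZEB1 libraries, against 138, 177 and 169 CPM in the controls. Values of the groups were interleaved, and the log2 fold change was 0.10 (SE 0.16, edgeR adjusted p = 0.900). With TUBA1A, TUBA1B and TUBA1C counted as 1 gene, the log2 fold change was 0.06 (SE 0.15, edgeR adjusted p = 0.944). This sum does not depend on how the reads counted to these genes were split among them. Shared reads that were left out of the counting, or assigned to a locus outside the sum, would still be missing from it.

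TUBA4A (Entrez 7277, chromosome 2, 219249710 to 219254740), an isotype abundant in platelets, muscle and neurons, was the least counted member. Its counts were 10, 13 and 86 in ZEB1 replicates 1, 2 and 3, against 102, 107 and 108 in control replicates 1, 2 and 3. In CPM these were 8.89, 8.36 and 25.6, against 16.4, 19.5 and 17.6. ZEB1 replicates 1 and 2 lay below every control and replicate 3 above every control, so that the mean of 14.3 ± 9.82 CPM with the ZEB1 vector (SD, n = 3) describes none of its 3 libraries. Exact 95% Poisson intervals, which cover counting error only, were 4.26 to 16.3 CPM in ZEB1 replicate 1, 4.45 to 14.3 CPM in replicate 2 and 20.5 to 31.6 CPM in replicate 3. The controls spanned 13.3 to 23.6 CPM with their own intervals. The log2 fold change of -0.23 (SE 0.42, edgeR adjusted p = 0.916) was -1.06 (adjusted p = 0.217) without ZEB1 replicate 3, and 0.01 and 0.06 without ZEB1 replicates 1 and 2.

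The promoter of TUBA4A is shown because it was the only member whose promoter window held the core E-box that ZEB1 is known to bind, CAGGTG on either strand (reverse complement CACCTG). Windows ran from 250 bases before to 50 after a transcript start in RefSeq, and 15 windows covered the 10 members. The only window of TUBA4A is set on a start at 219253918, which lies 822 bases inside the gene span given above, and the outermost start at 219254740 had no window here. The E-box was found in at least 1 window of 24.1% of all 27305 genes with a window and in 1 of the 10 members. It begins 179 bases before that inner start and is in capitals in the sequence of chr2:219253869-219254168 (GRCh38.p14, RefSeq, minus strand), a match of letters and not a shown binding site.
TUBA4A promoter: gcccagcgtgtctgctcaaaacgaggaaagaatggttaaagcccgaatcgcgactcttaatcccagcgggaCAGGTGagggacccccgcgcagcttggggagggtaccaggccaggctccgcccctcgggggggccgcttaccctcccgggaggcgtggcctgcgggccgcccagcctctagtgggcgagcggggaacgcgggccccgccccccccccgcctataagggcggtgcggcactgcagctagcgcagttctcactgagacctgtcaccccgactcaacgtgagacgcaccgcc

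**Figure D2:**
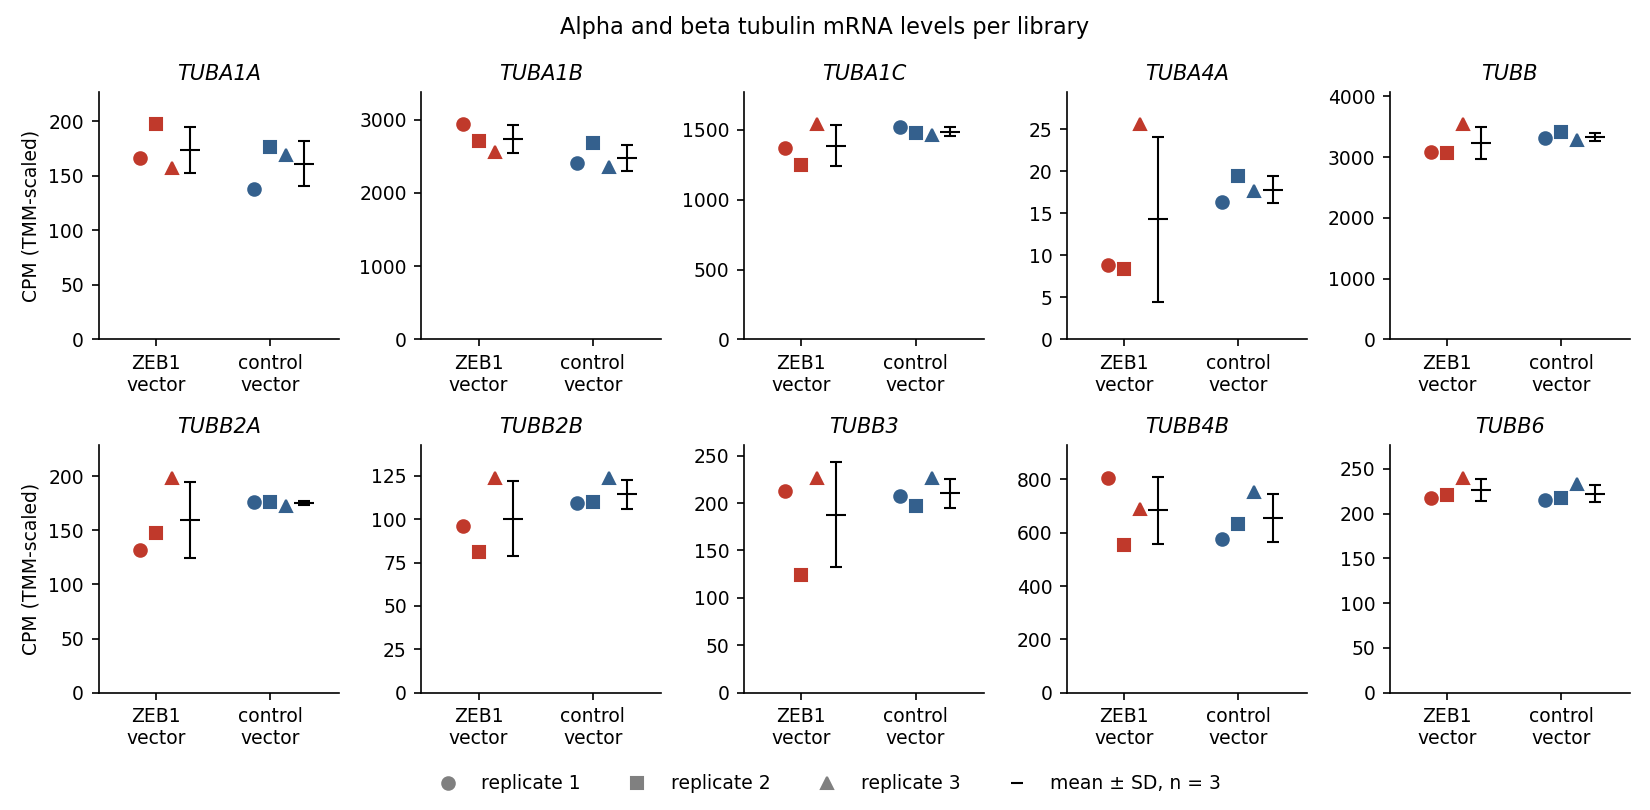
CPM (y axis, TMM-scaled, each panel from 0) of the 10 tubulin genes in the 3 ZEB1 vector libraries (red) and the 3 control vector libraries (blue). Circles, squares and triangles mark replicates 1, 2 and 3, and bars give mean ± SD (n = 3). The groups overlap in every panel, and ZEB1 replicate 3 stands apart from replicates 1 and 2 in TUBA4A.

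Among the beta genes, TUBB (Entrez 203068, chromosome 6, 30720352 to 30725422), the class I isotype of most non-neuronal cells, had the highest CPM of the family. It had 3079, 3073 and 3540 CPM with the ZEB1 vector, against 3306, 3412 and 3286 CPM with the control vector. ZEB1 replicates 1 and 2 lay below all controls and replicate 3 above them, and the log2 fold change was -0.05 (SE 0.15, interval -0.35 to 0.26, edgeR adjusted p = 0.953). TUBB4B (Entrez 10383, chromosome 9, 137241287 to 137243707), a class IV isotype that is ubiquitous and also prominent in ciliary axonemes, had 807, 555 and 689 CPM in the ZEB1 libraries, against 577, 632 and 753 CPM in the controls. It had the highest and the lowest of its 6 values in the ZEB1 group, and its log2 fold change was 0.06 (SE 0.16, edgeR adjusted p = 0.942).

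TUBB6 (Entrez 84617, chromosome 18, 12307669 to 12329826), the class V isotype, varied least among ZEB1 libraries. Its values were 218, 221 and 240 CPM with the ZEB1 vector, against 216, 218 and 233 CPM with the control vector. That is 226 ± 12.2 CPM and 222 ± 9.44 CPM (SD, n = 3 each), coefficients of variation of 5.39% and 4.25%. Its log2 fold change was 0.03 (SE 0.14, interval -0.27 to 0.33, edgeR adjusted p = 0.971).

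TUBB3 (Entrez 10381, chromosome 16, 89921925 to 89936097), the class III isotype used as a marker of neurons and raised in some tumours, had 212, 124 and 226 CPM in ZEB1 replicates 1, 2 and 3, against 208, 197 and 227 CPM in the controls. Only ZEB1 replicate 2 lay outside the control range. The log2 fold change was -0.16 (SE 0.19, edgeR adjusted p = 0.857), and it was 0.06 without ZEB1 replicate 2 and -0.34 without replicate 3. Of 16 listed neuronal markers 5 were tested and 0 passed, their summed level was 263 to 297 CPM with the ZEB1 vector and 266 to 288 CPM with the control vector, and RBFOX3 and NEFL had no count. UCHL1 gave 227 ± 6.57 CPM and 224 ± 13.2 CPM of those sums (SD, n = 3 each), and their part in the TUBB3 values was not tested.

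The class II genes TUBB2A (Entrez 7280, chromosome 6, 3153666 to 3157544) and TUBB2B (Entrez 347733, chromosome 6, 3224277 to 3227653), supply the major beta tubulin of brain. TUBB2A had 132, 148 and 199 CPM with the ZEB1 vector, against 176, 176 and 173 CPM with the control vector. TUBB2B had 96.0, 81.0 and 124 CPM with the ZEB1 vector, against 109, 110 and 124 CPM with the control vector. For both genes ZEB1 replicates 1 and 2 lay below all 3 controls, while replicate 3 lay above them for TUBB2A and within their range for TUBB2B. Log2 fold changes were -0.12 (SE 0.17, edgeR adjusted p = 0.879) and -0.17 (SE 0.18, edgeR adjusted p = 0.837), and -0.15 (SE 0.16, edgeR adjusted p = 0.842) with both counted as 1 gene. Without ZEB1 replicate 3 the log2 fold changes were -0.33 (SE 0.16, edgeR adjusted p = 0.279) for TUBB2A and -0.38 (SE 0.18, edgeR adjusted p = 0.279) for TUBB2B.

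The coefficient of variation between libraries was larger with the ZEB1 vector for 8 of the 10 genes, close to the 78.3% of all genes for which it was. TUBA1A and TUBA1B were the exceptions, and their SDs were still slightly larger with the ZEB1 vector. TUBB2A had coefficients of variation of 21.98% with the ZEB1 vector and 1.18% with the control vector, and TUBA1C 10.6% and 2.04%. In 7 members (TUBA1C, TUBA4A, TUBB, TUBB2A, TUBB2B, TUBB3 and TUBB6) ZEB1 replicate 3 was the highest ZEB1 library, which held for 33.2% of all genes. ZEB1 replicates 1 and 2 both lay below all controls in 5 members, a pattern seen in 20.3% of all genes tested, and both lay above them in TUBA1B, seen in 17.1%. Those are the libraries with the fewest counts and the most ZEB1, and the part of either was not tested.

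Summed over the 4 genes, alpha tubulin had 4479, 4155 and 4277 CPM in ZEB1 replicates 1, 2 and 3, against 4073, 4358 and 3999 CPM in control replicates 1, 2 and 3. The 6 beta genes summed to 4543, 4202 and 5019 CPM, against 4592, 4745 and 4795 CPM. Both sums overlapped between the groups, at 4304 ± 164 and 4143 ± 189 CPM for alpha and 4588 ± 410 and 4710 ± 106 CPM for beta (ZEB1 vector, then control vector, SD, n = 3 each). The ratio of alpha to beta counts, which does not depend on the scaling between libraries, was 0.986, 0.989 and 0.852 with the ZEB1 vector and 0.887, 0.918 and 0.834 with the control vector. ZEB1 replicates 1 and 2 had more alpha relative to beta than any control, and replicate 3 lay within the control range. The 10 genes together took 0.795%, 0.802% and 0.941% of all counts in the ZEB1 libraries and 0.917% to 0.932% in the controls. These shares use totals without TMM scaling. In TMM-scaled CPM the 10 summed to 8358 to 9295 with the ZEB1 vector and 8665 to 9102 with the control vector.

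The make-up of the alpha counts showed the same division of the ZEB1 libraries. TUBA1B gave 65.5%, 65.1% and 59.8% of alpha counts in ZEB1 replicates 1, 2 and 3, against 58.9%, 61.6% and 58.8% in the controls. TUBA1C gave 30.6%, 29.96% and 36.0% of them with the ZEB1 vector, against 37.3%, 33.9% and 36.5% with the control vector. The log2 ratio of TUBA1B to TUBA1C counts was thus 1.10, 1.12 and 0.73 with the ZEB1 vector and 0.66, 0.86 and 0.69 with the control vector. ZEB1 replicates 1 and 2 lay above every control in this ratio and replicate 3 among them. The difference in the TUBA1B share, 3.68 percentage points, was -0.019 with only ZEB1 replicate 3 on the ZEB1 side.

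Mean shares of the beta counts were close between the groups. TUBB gave 70.5 ± 2.68% of beta counts with the ZEB1 vector and 70.8 ± 1.99% with the control vector (SD, n = 3 each). TUBB4B gave 14.9 ± 2.49% and 13.9 ± 1.64%, with the highest share, 17.8%, in ZEB1 replicate 1 and 12.6% to 15.7% in the controls. TUBB6 gave 4.95 ± 0.273% and 4.72 ± 0.135%, TUBB3 4.05 ± 0.950% and 4.47 ± 0.298%, TUBB2A 3.46 ± 0.535% and 3.72 ± 0.116%, and TUBB2B 2.17 ± 0.275% and 2.43 ± 0.142%. All 6 shares overlapped between the groups. TUBB2A and TUBB2B together gave 5.01%, 5.45% and 6.43% of beta counts in ZEB1 replicates 1, 2 and 3. In control replicates 1, 2 and 3 they gave 6.21%, 6.03% and 6.19%. In this share ZEB1 replicates 1 and 2 lay below every control and replicate 3 above them.

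**Figure D3:**
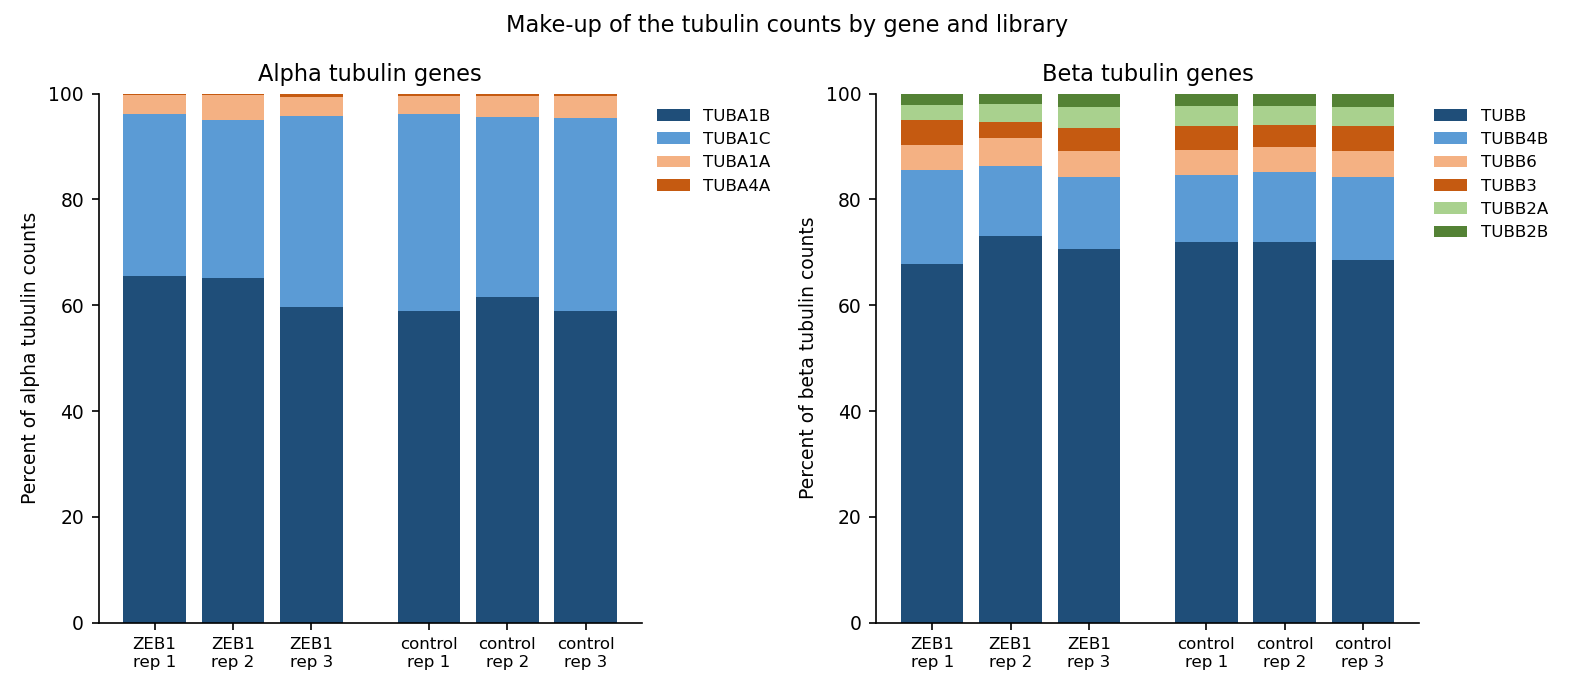
Percent of the summed alpha tubulin counts (left) and beta tubulin counts (right) given by each gene, y axis, 1 stacked bar per library, ZEB1 vector libraries left of control vector libraries. The TUBA1B segment is 65.5% and 65.1% in ZEB1 replicates 1 and 2, and between 58.8% and 61.6% in the other 4 libraries.

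Levels were compared between genes as CPM per kilobase of transcript. TUBA1B came first with 1679 ± 117 CPM per kb with the ZEB1 vector and 1523 ± 110 with the control vector, and TUBB was next with 1210 ± 100 and 1249 ± 25.4 (SD, n = 3 each). TUBA1C followed with 461 ± 49.1 and 495 ± 10.1, and TUBB4B with 418 ± 77.0 and 399 ± 54.98, and the ranges of these neighbours overlapped in the ZEB1 group but not in the controls. TUBB6, TUBB3, TUBB2A and TUBA1A formed a lower tier with means of 90.6 to 110 CPM per kb with the ZEB1 vector and 84.3 to 119 with the control vector. Each of these 4 overlapped its neighbour in the ZEB1 libraries. In the controls TUBB6 overlapped both TUBB2A and TUBB3, and no other pair of these 4 overlapped. TUBB2B had 49.7 ± 10.8 and 56.6 ± 4.13 CPM per kb, and TUBA4A came last with 6.61 ± 4.54 and 8.25 ± 0.732. Reads from 3' ends do not grow with transcript length, and in CPM without this division TUBB stood above TUBA1B in both groups. The order and overlaps above thus depend on the division. In CPM the ZEB1 libraries had 1245 to 1539 for TUBA1C and 555 to 807 for TUBB4B, with no overlap. TUBB6 had a higher mean CPM than TUBB3, TUBB2A and TUBA1A in both groups.

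Other alpha and beta tubulin genes in the table had few or no counts. TUBA3C, TUBA3D, TUBA3E, TUBAL3 and TUBB8, isotypes of testis and other restricted tissues, had no count in any library, which allows up to 2.67 CPM in the shallowest ZEB1 library and 0.547 CPM in the shallowest control. TUBB1, the isotype of platelets and megakaryocytes, had 33 counts over all 6 libraries, TUBB4A of the brain 31 and TUBA8 2. None of these passed the filter on low counts.

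The likeness of other genes to TUBB was measured over the 6 libraries by Pearson's r of log2 CPM among 5620 genes whose counts averaged 100 or more. The 5 most alike were DNAJB1 (r = 0.998), QSOX2 (0.989), KDELR1 (0.983), ZMYND19 (0.980) and CCT7 (0.977). TUBB spanned 0.20 on the log2 scale over these libraries, which share their depth and scaling. DNAJB1, an HSP40 cochaperone, had 128, 127 and 145 CPM with the ZEB1 vector, against 135, 140 and 135 CPM with the control vector. In the same order QSOX2 had 45.3, 46.9 and 74.2 CPM, against 57.7, 61.3 and 57.0 CPM. KDELR1 had 148, 145 and 213 CPM, against 178, 200 and 165 CPM. ZMYND19 had 42.7, 38.6 and 94.1 CPM, against 65.1, 70.2 and 67.4 CPM. CCT7, a subunit of the chaperonin that folds tubulin and actin, had 608, 613 and 722 CPM with the ZEB1 vector, against 655, 703 and 644 CPM with the control vector. A shared role of the 5 genes was not tested. The r values describe 6 points chosen as the highest of many.

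Of the tubulin folding cofactors, which take alpha and beta chains from the chaperonin and join them, 7 of 7 were tested and 0 passed the adjusted threshold. 5 log2 fold changes were positive and 2 negative, with a median of 0.25. TBCA holds folded beta tubulin. It had 735, 478 and 336 CPM in ZEB1 replicates 1, 2 and 3, against 292, 360 and 271 CPM in the controls. ZEB1 replicate 3 lay within the control range. Means were 517 ± 202 CPM with the ZEB1 vector and 308 ± 46.8 CPM with the control vector (SD, n = 3 each). The log2 fold change was 0.74 (SE 0.21, edgeR adjusted p = 0.226). TBCB, which binds alpha tubulin, had -0.18 (SE 0.16) and ARL2, the small GTPase of the assembly complex, 0.25 (SE 0.17).

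The 10 autoregulation genes tested gave 0 calls and a median of 0.05, with 6 positive and 4 negative. TTC5, the factor that recognises the nascent tubulin chain, had 30.5 ± 4.498 CPM with the ZEB1 vector and 25.3 ± 3.36 CPM with the control vector (SD, n = 3 each), a log2 fold change of 0.28 (SE 0.29). Its partner SCAPER had 0.30 (SE 0.32). Both were named after their values were seen. The CCR4-NOT deadenylase subunits CNOT7, CNOT1 and CNOT2 had 0.30 (SE 0.16), -0.11 (SE 0.19) and -0.12 (SE 0.20).

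The gamma, delta and epsilon tubulins with the gamma ring complex, which nucleates microtubules, had 12 of 13 genes tested, 0 calls and a median of 0.09, with 7 positive and 5 negative. MZT2A and MZT2B, small subunits of the ring, had -0.12 (SE 0.15) and 0.10 (SE 0.17), and the gamma tubulin gene TUBG1 -0.08 (SE 0.16).

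Tubulin modifying enzymes had 15 of 22 genes tested and 0 calls, with 3 positive and 12 negative and a median of -0.27. Among all genes tested 5494 were positive and 5835 negative. Standard errors of single genes in this list ran from 0.18 to 0.96, and the list was not tested as a set. Their summed level over all 22 genes was 373 to 468 CPM with the ZEB1 vector and 485 to 514 CPM with the control vector. These ranges did not overlap, but how often sums of other genes do so was not measured. Part of the sums came from TTLL12, with means of 82.7 CPM and 125 CPM. TTLL12, a member of the tubulin ligase family, had 77.3, 63.7 and 107 CPM in ZEB1 replicates 1, 2 and 3, against 121, 131 and 123 CPM in the controls, all 3 below all controls. Its log2 fold change was -0.57 (SE 0.19, edgeR adjusted p = 0.295). TTL, which restores the C-terminal tyrosine of alpha tubulin, had -0.27 (SE 0.18) and the polyglutamylase subunit TPGS2 0.24 (SE 0.22).

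Microtubule-associated and plus end proteins had 25 of 29 genes tested, 0 calls and a median of -0.14, with 9 positive and 16 negative. Their summed level over all 29 genes was 2800 to 3092.4 CPM with the ZEB1 vector and 3092.5 to 3363 CPM with the control vector. These ranges nearly touched, and here too the share of other sums that do not overlap was not measured. Part of the sums came from MAP1B, with means of 338 CPM and 471 CPM. MAP1B, which stabilises microtubules in growing processes, had 246, 350 and 417 CPM with the ZEB1 vector, against 489, 419 and 507 CPM with the control vector. All 3 ZEB1 values lay below all controls, and the log2 fold change was -0.47 (SE 0.17, edgeR adjusted p = 0.358). The spindle proteins TPX2 and PRC1 had -0.14 (SE 0.14) and -0.15 (SE 0.14). The 10 severing and depolymerizing genes tested gave 0 calls and a median of -0.25, with 2 positive and 8 negative. Of these, the kinesin genes KIF2C and KIF2A, whose products depolymerise microtubule ends, had -0.09 (SE 0.21) and 0.57 (SE 0.27).

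**Figure D4:**
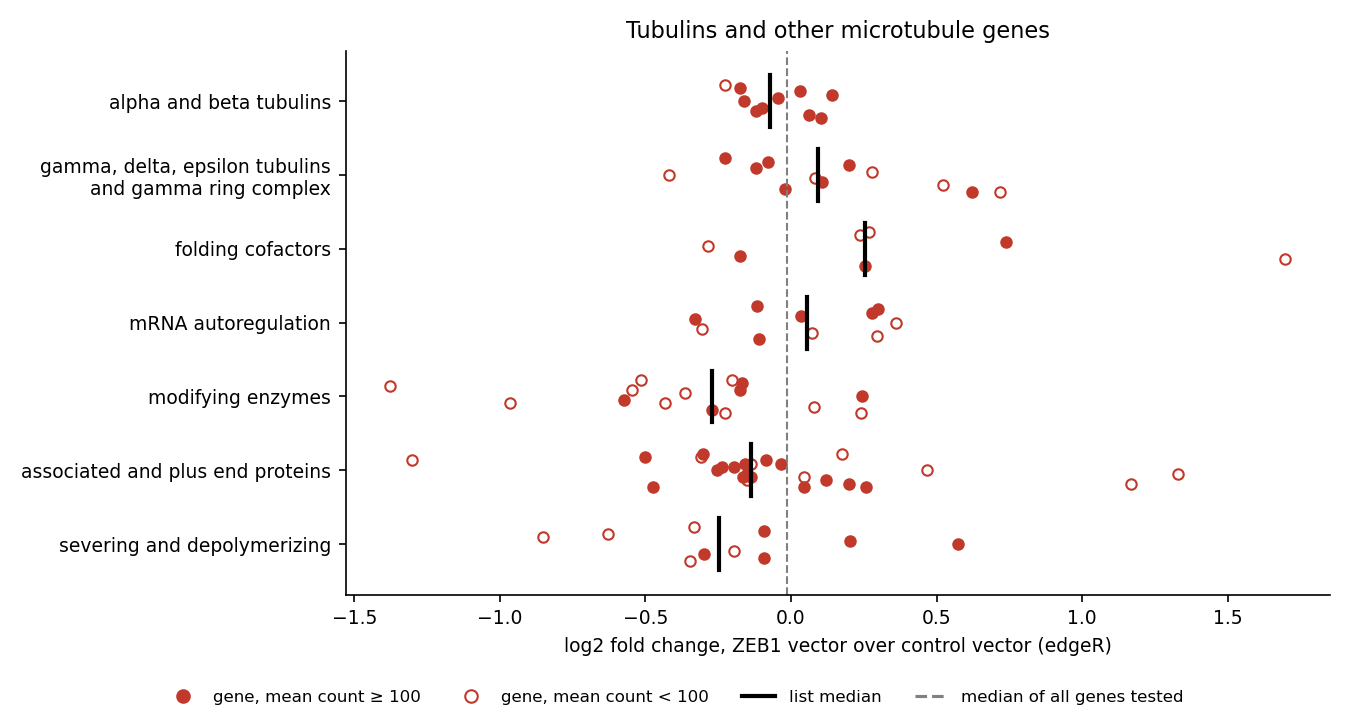
Log2 fold changes (x axis, ZEB1 vector over control vector, edgeR) of every tested gene of the tubulin family and of 6 lists of other microtubule genes, filled where counts averaged 100 or more and open below it. Black bars are list medians, from -0.27 for modifying enzymes to 0.25 for folding cofactors, and the dashed line is the median of all genes tested, -0.01. The alpha and beta tubulins lie in the narrowest band. Their median standard error was 0.16, beside 0.33 for all genes tested, and the part of count depth in this band was not tested.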

How the data were processed

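The authors deposited raw counts per gene for the 6 libraries, with no normalization. The submitters' processing notes list HISAT2, Subread, featureCounts and GRCh38, with no versions. No source used here states how molecular identifiers, strand or multi-mapping reads were handled, and reads not collapsed to molecules would make the Poisson intervals too narrow. Symbols came from RefSeq GRCh38.p14, which matched 27745 of 28395 IDs.

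Counts were tested with edgeR 4.0.16 (R 4.3.3): quasi-likelihood test, robust dispersions, TMM, filterByExpr, group as the only term, two-sided, with Benjamini-Hochberg adjustment over 11329 genes. Standard errors and intervals come from the F statistic and are approximate. DESeq2 1.42.0 and limma 3.58.1 (voom) were alternatives. The steps were tested on simulated data. Members and lists were chosen with earlier results of these data known, so no list was tested or adjusted alone. All members were named, with the 3 most counted tested genes of each list and the 5 genes most alike to the most counted member. One result under this rule is not reported here. Likeness used a pseudocount of 0.5 CPM. Transcript lengths, coding starts and 50-base windows came from GENCODE v29. Replicate numbers were not used to pair the libraries in the main test.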

Additional observations from a re-analysis of the deposited data

How the results depend on the processing

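No member with an adjusted p passed the threshold under any of the 17 alternatives run (DESeq2 gave none for TUBA4A), and the smallest adjusted p of a member was 0.217 (TUBA4A, edgeR without ZEB1 replicate 3). The count of all genes that passed was 1 with edgeR, 127 without a filter on low counts, 174 with DESeq2, 58 with limma-voom, 2 with both shallower ZEB1 libraries left out, and 1 to 409 when each library was dropped in turn (409 without ZEB1 replicate 3). Library size alone gave a median of -0.14 over all genes, beside -0.01 with TMM. With it the log2 fold changes were -0.029 for TUBA1A, -0.077 for TUBB4B and -0.10 for TUBB6, 1 of the 10 was positive (TUBA1B at 0.00060), and the alpha and beta sums differed by -0.083 and -0.18 on the log2 scale. With ZEB1 replicate 3 as the only ZEB1 library, assumed to vary like the controls, the median of the members was 0.089, with TUBA1A at -0.046, TUBA1C at 0.044, TUBA4A at 0.52, TUBB at 0.080, TUBB2A at 0.18, TUBB2B at 0.11 and TUBB3 at 0.10. The beta sum then differed by 0.085 and the alpha to beta ratio by -0.045 (log2), and the shares of TUBA1B and TUBA1C by -0.019 and 0.073 percentage points. With each library dropped in turn the log2 fold changes spanned -0.0088 to 0.17 for TUBA1A, -1.06 to 0.057 for TUBA4A, -0.34 to 0.058 for TUBB3, -0.073 to 0.19 for TUBB4B, -0.026 to 0.063 for TUBB6, -0.33 to -0.0072 for TUBB2A, -0.38 to -0.044 for TUBB2B, -0.13 to -0.015 for TUBB, -0.19 to -0.035 for TUBA1C and 0.080 to 0.20 for TUBA1B, and their median -0.16 to 0.019. Deviations of same-numbered libraries from their group means correlated at -0.032, -0.0095 and 0.0087 over all genes tested. These values could miss a weak pairing, so whether the replicate numbers pair libraries stays unknown. With the replicate block 1 gene and 0 members passed, with a member median of -0.08.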

Other observations

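Promoter windows of the tubulin genes were also searched for CCAAT (reverse complement ATTGG) and TATAA (reverse complement TTATA) on both strands. CCAAT was found in at least 1 window of 7 of the 10 members, TUBA1A, TUBA1C, TUBB, TUBB2B, TUBB3, TUBB4B and TUBB6, and in 39.7% of all genes with a window. TATAA was found for 5 members, TUBA1C, TUBA4A, TUBB2A, TUBB3 and TUBB4B, and in 24.2% of all genes. TUBA1B held neither. Genes with several windows have more chances of a match, and 15 windows covered the 10 members.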
